A study of Serinus canaria and Ploceus bicolor and Uraeginthus cyanocephalus with 155 samples.

Results

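The 150 transcripts described here had the highest levels in the canary cerebellum relative to 2 areas of the pallium, HVC, which controls song, and the entopallium, which serves vision. They were chosen from the 26061 transcripts of a custom exon array by their levels in 71 arrays of breeding and non-breeding male and female canaries without testosterone. In each of these 4 groups, the enrichment of a transcript was its mean level in the cerebellum minus the higher of its means in HVC and the entopallium, on a log2 scale, so that a value of 1 is a 2-fold difference. Transcripts whose HVC and entopallium means differed by 0.3 or more in any of the 4 groups were set aside, and the 150 remaining transcripts with the highest minimum enrichment over the groups were kept. The enrichment and the similarity of HVC and entopallium in these arrays are therefore what defined the set, and they are given as a description without a test.

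The cerebellum is a folded hindbrain structure that receives mossy fibre and climbing fibre input and adjusts movement. Its molecular layer, which the series names as the sampled part, holds the dendrites of Purkinje cells, the parallel fibres of granule cells, inhibitory interneurons and the processes of Bergmann glia. HVC is a premotor nucleus of the songbird pallium that drives learned song and responds to sex steroids, and the entopallium is a pallial area of the visual pathway. The cerebellum is not part of the forebrain song circuit, and it differs from the pallium in its neuron types and in its developmental origin.

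The study compared the brains of 3 songbirds, the canary, the forest weaver and the blue-capped cordon-bleu. Each array received cDNA made from total RNA of 1 tissue of 1 adult bird. The cerebellum was sampled only in canaries, on 24 arrays, whereas HVC was represented by 66 arrays and the entopallium by 65. The canary groups under long days were breeding males that sang and breeding females that did not. Non-breeding males and females were under short days and did not sing. Further birds of both sexes outside breeding had carried a testosterone implant for 2 weeks and sang. Other non-breeding females sang spontaneously without an implant. Song thus differed together with season in males and together with sex in breeding birds, and these cannot be told apart. The forest weavers and cordon-bleus were breeding males and females that sang, described as under long days. The forest weavers were wild pairs caught in their territories, whereas the cordon-bleus and canaries were bred in captivity, so that species and origin cannot be told apart. Every group of 1 sex, state and tissue had 6 birds, except the entopallium of non-breeding females with 5. For HVC of non-breeding females that did not sing, the paper lists 5 birds. The series holds 6 arrays of this group, and all 6 were used here. For the implanted birds, the treatment protocol field says that none was given, which conflicts with their other descriptions, and the latter were followed. These birds differed from their controls in both hormone and song, so the effects of the 2 cannot be told apart.

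The values were log2 transcript levels that the authors had normalised between arrays. The array's probes follow zebra finch sequence, so between species, probe binding and expression cannot be told apart. The identifiers matched 0 of the 17915 genes of the canary reference table, and the files hold no gene names for them. The members are therefore given by the identifier on the array, and no gene name or function is assigned to them. For the same reason, the labelled tissues could not be checked against the defining markers of Purkinje cells, granule cells, Bergmann glia or other cell types. Of the 150 members, 75 had a zebra finch Ensembl transcript identifier, 52 were RefSeq predicted mRNAs, 8 were RefSeq predicted non-coding RNAs (5.33% of the members and 3.43% of all transcripts), and 15 had other identifiers. Over all transcripts, the cerebellum arrays had medians of 7.24 to 7.40, and correlations between cerebellum arrays were 0.971 to 0.990. The arrays of spontaneously singing females stood apart at the low end of the scale. The 1st percentile of their levels was 3.18 to 3.43, compared with 2.63 to 3.03 in the 71 other canary pallium arrays.

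The members ranged from a 2-fold to a nearly 30-fold higher level in the cerebellum. The minimum enrichment over the 4 groups had a median of 1.30 (2.47-fold), with quartiles of 1.12 and 1.85. It was at least 2 in 30 members, at least 3 in 10 members and at least 4 in 3 members. Over all transcripts the median was -0.20. The set has no natural edge at its lower end, since the last member, ENSTGUT00000018987, had a minimum enrichment of 1.01 and the next transcript, XR_054155, one of 1.00. At the limit for the difference between HVC and entopallium, the member XM_002195417 lay just inside with 0.297 and XM_002191830, with an enrichment of 1.03, just outside with 0.305. A total of 373 transcripts had an enrichment at least as high as that of the last member, and 223 of them were left out because HVC and entopallium differed. The cerebellum and pallium samples are mixtures of cells, so fewer cells of a type and less RNA per cell cannot be told apart in any of these values.

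ENSTGUT00000006855 had the highest minimum enrichment, 4.90, which is a 29.8-fold difference. In the cerebellum its level was 9.81 in the lowest, 10.13 in the median and 10.64 in the highest of the 24 arrays, and in the 47 pallium arrays of the same groups it was 4.85, 5.14 and 5.66. The lowest cerebellum array was thus above the highest pallium array by more than 4 log2 units, and the enrichment was nearly constant over the groups, between 4.90 and 4.97. XM_002193305 was second with a minimum enrichment of 4.84. Its level was 8.80, 9.29 and 10.00 in the lowest, median and highest cerebellum array and 3.53, 4.26 and 5.07 in the pallium arrays of the rule. Here too no pallium array reached the cerebellum.

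**Figure D1:**
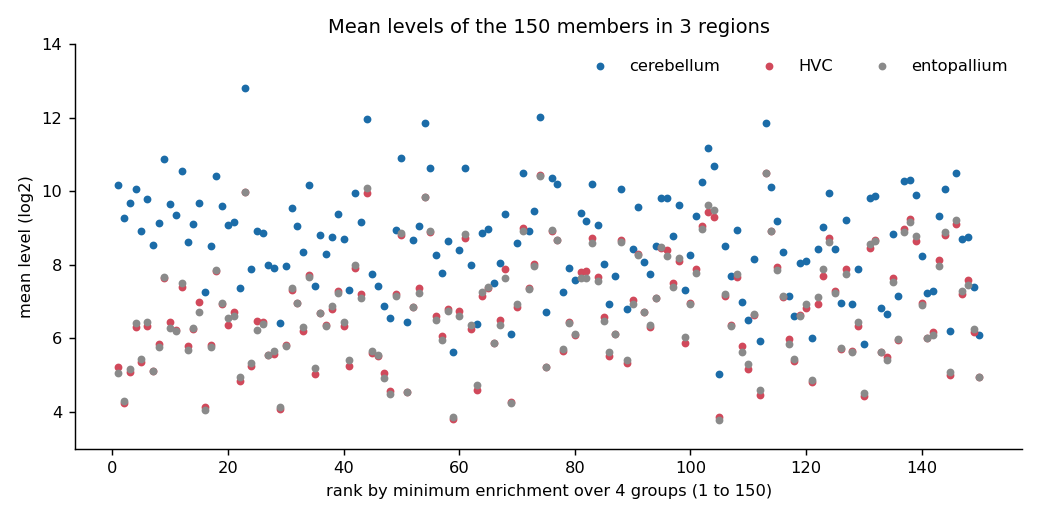
Mean log2 level of each of the 150 members in the cerebellum (24 arrays, blue), HVC (24 arrays, red) and entopallium (23 arrays, grey) of the 4 canary groups that chose them, against rank by minimum enrichment. The gap to the pallium narrows from 4.90 at rank 1 to 1.01 at rank 150, while the levels themselves are spread over the scale at every rank.

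Enrichment was not the same as abundance. The mean level of a member in the cerebellum ranged from 5.02 to 12.8, with a median of 8.73, compared with a median of 7.33 over all transcripts. Ranked among all transcripts of the cerebellum, the median member was at the 82.5th percentile, 91 members were in the highest 25% and 6 in the lowest 25%. In HVC and entopallium the median member was at the 36.7th and the 36.0th percentile, and 47 and 48 members were in the lowest 25%. Only 8 members moved from the lowest 25% in the pallium to the highest 25% in the cerebellum, whereas 26 members were in the highest 25% of HVC and 26 in that of the entopallium.

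Every member was enriched in both sexes and both seasons, as the choice of the minimum requires. The group medians were similar. The median enrichment was 1.51 in breeding males, 1.57 in breeding females, 1.53 in non-breeding males and 1.52 in non-breeding females. The difference between the highest and the lowest of the 4 groups had a median of 0.31 per member, against 0.25 over all transcripts, and was under 0.5 in 122 members. The rule used these group means, so the larger median is not read as a trait of the members. The widest range, 1.21, was that of NM_019139, with an enrichment of 3.82 in breeding males and 2.62 in non-breeding females. Averaged over all arrays of the rule, the cerebellum was at least 1 log2 unit above the pallium in all 150 members (3.08% of all transcripts). For 145 of the 150 members, every cerebellum array lay above every pallium array of the rule. This was so for 5.74% of all transcripts. Since the rule used these arrays, nothing is read from either share. The 5 members with overlapping arrays were ENSTGUT00000004915, XM_002198951, XR_054841, XM_002195681 and ENSTGUT00000013088. ENSTGUT00000004915, for example, reached 9.22 in 1 entopallium array of a breeding male and began at 9.11 in the cerebellum. ENSTGUT00000013088 ran from 6.59 to 8.84 in the cerebellum and had the largest standard deviation within groups in the cerebellum, 0.66.

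The pallium arrays that had played no part in the choice of the members were set against the same cerebellum arrays that chose them. Against the 36 pallium arrays of testosterone-implanted and spontaneously singing canaries, the cerebellum mean was higher by at least 1 log2 unit in 149 members, where 3.13% of all transcripts were, and the arrays did not overlap in 134 members (5.21% of all transcripts). The cerebellum arrays of this comparison and of those with other species were those of the rule, which chose the members for high levels in them. The counts are therefore a description, and no independent support for the enrichment is read from them. The lowest difference was that of the last member, ENSTGUT00000018987, with 0.96, and the median was 1.56. Against the pallium of other species, the cerebellum mean of canaries was higher by at least 1 log2 unit in 141 members for forest weavers (5.63% of all transcripts) and in 138 members for cordon-bleus (7.25%). The arrays did not overlap in 135 members for forest weavers (13.3% of all transcripts) and in 139 members for cordon-bleus (16.1%). No cerebellum was sampled in these species, so it is the level in their pallium, measured with probes of another species, that was low for most members.

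**Figure D2:**
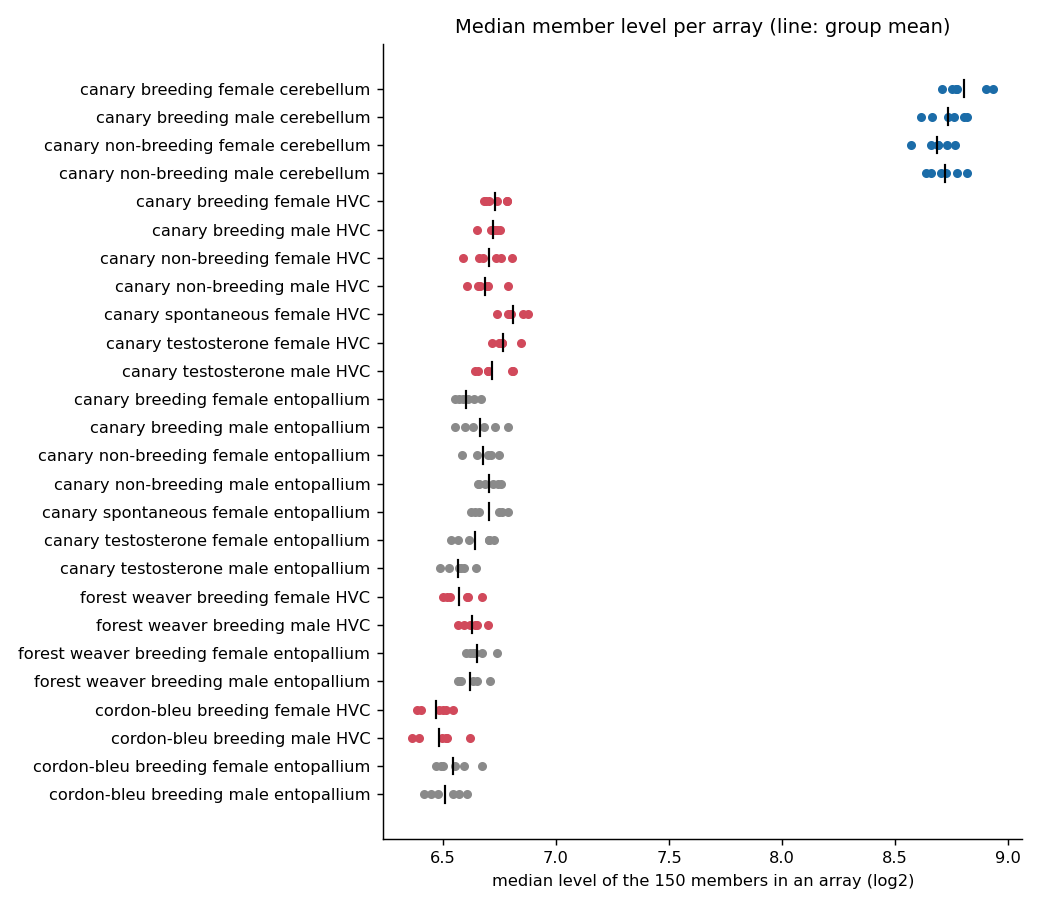
Median log2 level of the 150 members in each array (points), with the mean of each group (line). The 24 cerebellum arrays lie between 8.57 and 8.93, the 83 canary pallium arrays between 6.49 and 6.88 and the 48 arrays of other species between 6.36 and 6.74.

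In the plot of medians by array, the gap between the cerebellum and the 47 pallium arrays of the rule follows from the choice of the members. The medians of the other pallium arrays lay between 6.36 and 6.88. Of the single members, 2 were not lower in the cordon-bleu pallium than in the canary cerebellum, and they are named because of these values. ENSMMUT00000003568 had a level of 9.82 ± 0.14 (SD, n = 24) in the canary cerebellum and of 8.47 ± 0.19 (SD, n = 47) in the canary pallium arrays of the rule. In the 24 forest weaver arrays its level was 8.74 ± 0.41 (SD), and in the 24 cordon-bleu arrays it was 10.1 ± 0.43 (SD), which is above the canary cerebellum. ENSTGUT00000007670 had levels of 10.2 ± 0.22 (SD, n = 24) in the canary cerebellum, 8.68 ± 0.21 (SD, n = 47) in the canary pallium, 9.13 ± 0.39 (SD, n = 24) in forest weavers and 10.3 ± 0.37 (SD, n = 24) in cordon-bleus. For both, the cordon-bleu arrays overlapped those of the canary cerebellum and the arrays of the canary pallium did not. The 2 areas of cordon-bleus differed. ENSMMUT00000003568 had a mean of 9.71 in HVC and 10.47 in the entopallium, and ENSTGUT00000007670 one of 9.99 and 10.56. Only the entopallium means were thus above the canary cerebellum. In forest weavers too, both members were lower in HVC, with differences of -0.68 and -0.61. In forest weavers, XM_002192910 came closest to the canary cerebellum, with a difference of 0.04.

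The members also differed between birds of the same group. The standard deviation within groups had a median of 0.189 over the members and 0.157 over all transcripts in the cerebellum, of 0.135 and 0.119 in HVC and of 0.134 and 0.124 in the entopallium. Part of this variation was shared. Over the 24 cerebellum arrays, after the mean of each group had been subtracted, the first principal component of the members held 31.5% of their variance, and 20 members had a correlation with it above 0.5 and 42 one below -0.5. At the positive end were XM_002189891 (r = 0.97) and ENSTGUT00000004915 (r = 0.95), and at the negative end ENSTGUT00000006509 (r = -0.91) and ENST00000375723 (r = -0.89). These correlations are descriptions over 24 arrays that share their normalisation. The component is given without its counterpart over all transcripts, so it is not read as a trait of the members. Pairs of members with a correlation above 0.7 made up 1.68% of the 11175 pairs, compared with 3.92% of the pairs of all transcripts, so that members were not correlated more often than other transcripts. The breeding male replicate 6 had the lowest score on this component, -3.52, and the lowest mean correlation with the arrays of its group, 0.978. The non-breeding female replicate 6, with a score of -2.93, had the lowest median of all cerebellum arrays, 7.24. The part of these array properties in the shared variation was not tested.

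The sexes were compared in the cerebellum within each season, which the rule did not use beyond requiring enrichment in every group. Calls required an adjusted p under 0.05 from limma, with the Benjamini-Hochberg method applied to the 26061 transcripts together, and a log2 difference of 0.5 or more in either direction. Sex differences are given as males minus females. Among breeding canaries the males sang and the females did not, so sex and song cannot be told apart there. Between non-breeding males and females, 3 members were called, and all 3 were higher in males, where 0.779% of all transcripts were called and 0.675% were called as higher in males. Between breeding males and females, 0 members were called (0.549% of all transcripts), with 2 at an adjusted p under 0.05 (1.67% of all transcripts) and 31 at an unadjusted p under 0.05 (13.5%). The median difference over the members was -0.02 in non-breeding and -0.06 in breeding birds, compared with 0.01 and 0.03 over all transcripts.

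ENSTGUT00000019272 showed the largest sex difference of the members in the non-breeding cerebellum. Its level was 8.77 in the lowest, 8.95 in the median and 9.21 in the highest of 6 non-breeding males and 8.09, 8.11 and 8.36 in 6 non-breeding females. All males were above all females, with a log2 difference of 0.82 (standard error, SE, 0.08, adjusted p = 0.000152 in limma). In the breeding cerebellum the male level was 8.94 ± 0.24 (SD, n = 6), the female level was 8.50 ± 0.14 (SD, n = 6), and the sexes overlapped. The same order was seen in the pallium of non-breeding birds, and HVC had 7.10 ± 0.08 (SD, n = 6) in the males against 6.58 ± 0.08 (SD, n = 6) in the females. This sex difference in HVC was not tested here.

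XM_002188320 had a level of 10.17, 10.34 and 10.51 in the lowest, median and highest non-breeding male and of 9.42, 9.71 and 9.91 in the females. The sexes did not overlap, and the difference was 0.64 (SE 0.09, adjusted p = 0.00104 in limma). The sexes of the breeding birds did not overlap either, with 9.94 in the lowest male and 9.87 in the highest female, but this difference was under 0.5. ENSTGUT00000006600, named because only 3 members were called, had a level of 10.33, 10.48 and 10.67 in non-breeding males and 9.77, 10.01 and 10.18 in females. Its difference was 0.51 (adjusted p = 0.00456 from limma), close to the minimum of 0.5, and it was called in 7 of the 12 fits that left out 1 array.

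Breeding and non-breeding birds of the same sex were compared to ask whether the members change with season in the cerebellum. Neither group of females sang. The breeding males sang and the non-breeding males did not, so season and song cannot be told apart in males or in the interaction below. In females, 3 members were called, 2 higher and 1 lower in breeding birds, where 0.138% of all transcripts were called and 0.0691% in each direction, and in males 0 members were called (0.0115% of all transcripts). In males, 22 members had an unadjusted p under 0.05 (8.07% of all transcripts), and the smallest adjusted p was 0.167. ENSBTAT00000050515 had a level of 8.13 in the lowest, 8.32 in the median and 8.45 in the highest breeding female and of 7.24, 7.57 and 7.95 in non-breeding females. The breeding females were all above the others, with a difference of 0.73 (SE 0.12, adjusted p = 0.0300 in limma). XM_002198004 had 8.67, 8.84 and 9.02 in breeding and 8.02, 8.31 and 8.64 in non-breeding females without overlap, a difference of 0.52 (adjusted p = 0.0391 from limma). Both had a correlation of 0.91 over the 24 cerebellum arrays after the group means had been removed, and of 0.50 over all arrays. XR_053972 was the member called in the other direction, with 8.52, 9.10 and 9.30 in breeding and 9.45, 9.75 and 10.31 in non-breeding females, a difference of -0.76 (adjusted p = 0.0399 from limma). After scaling or quantile normalisation, 1 member was called in each direction. None of these 3 calls was kept in every fit that left out 1 array. The count of members called then lay between 0 and 8, and each of the 3 was called in 2 of 12 such fits. The difference in season was not shown to depend on sex, since the interaction of sex and season called 0 members (0.00384% of all transcripts, smallest adjusted p of a member 0.401 from limma), with 20 members at an unadjusted p under 0.05 (6.66% of all transcripts).

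Testosterone implants were examined only in the pallium, where the members had been chosen for levels below those of the cerebellum. The controls in all comparisons with testosterone or spontaneous singing were non-breeding birds without an implant that entered the rule, and the implanted and spontaneously singing birds did not. In HVC of males, 0 members were called (1.19% of all transcripts), and 24 had an unadjusted p under 0.05 (26.0%). The smallest adjusted p of a member was 0.0135 from limma, with a difference under 0.5. In HVC of females, 2 members were called, both higher in implanted birds (1.15% of all transcripts, 0.883% as higher). ENSTGUT00000001042 had a level of 6.97 in the lowest, 7.65 in the median and 7.78 in the highest implanted female and of 6.09, 6.31 and 6.41 in the controls. The groups did not overlap, and the difference was 1.22 (2.32-fold, SE 0.13, adjusted p = 0.000239 in limma). Its level in the HVC of spontaneously singing females was 6.50 ± 0.20 (SD, n = 6), and in the cerebellum of non-breeding females 7.95 ± 0.16 (SD, n = 6), so that the implanted HVC remained below the cerebellum in the mean. ENSTGUT00000000035, named because only 2 members were called, had 6.50, 7.11 and 7.53 in implanted females and 6.21, 6.48 and 6.80 in controls, which overlapped. Its difference was 0.55 (adjusted p = 0.0336 from limma), and the call held in 5 of 12 fits that left out 1 array.

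In the entopallium of females, 14 members were called, 9 higher and 5 lower in implanted birds. Of all transcripts 5.91% were called, 2.97% as higher and 2.94% as lower. With arrays brought to equal total intensity, 8 members were higher and 7 lower. XM_002196885 had a level of 10.02, 10.26 and 10.40 in the lowest, median and highest implanted female and of 9.04, 9.22, 9.54, 9.56 and 9.74 in the 5 controls. All implanted females were above all controls, with a difference of 0.83 (SE 0.11, adjusted p = 0.000331 in limma). XM_002189891 had 10.21, 10.43 and 10.62 in implanted females and 9.43, 9.55, 9.60, 9.70 and 9.89 in controls, a difference of 0.81 (adjusted p = 9.56e-05 from limma). Among the members that fell, XM_002199458 had 6.63, 6.94 and 7.07 in implanted females and 7.46, 7.53, 7.56, 7.70 and 7.84 in controls, a difference of -0.73 (adjusted p = 0.000181 from limma). XM_002193190 fell from 6.25, 6.49, 6.59, 6.66 and 6.66 in controls to 5.76, 5.92 and 6.02 in implanted females, a difference of -0.62 (adjusted p = 0.000239 from limma). In these 4 members the groups did not overlap. The 1st percentile of the array levels was lower in implanted females (2.63 to 2.77) than in their controls (2.80 to 2.90), and its part in these differences was not tested.

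In the entopallium of males, only ENSTGUT00000004915 was called, and 1.48% of all transcripts were, 1.06% as lower. Its level was 6.95, 7.17 and 7.28 in the lowest, median and highest implanted male and 7.41, 7.62 and 8.04 in the controls, without overlap. The difference was -0.50 (adjusted p = 0.00291 from limma), just past the minimum of 0.5. It was called in 10 of 12 fits that left out 1 array, and 0 members were called without non-breeding male replicate 4 or without implanted male replicate 6. In females the same member rose by 0.83 (adjusted p = 0.0139 from limma), with 7.66, 8.39 and 8.68 in implanted birds and 7.06, 7.25, 7.26, 7.45 and 8.22 in controls, which overlapped. An interaction of sex and testosterone in the entopallium was therefore tested, after these values had been seen. It is given as the difference in males minus that in females, and it called 16 members, 3 above and 13 below 0 (5.79% of all transcripts, 2.70% above and 3.09% below). ENSTGUT00000004915 had an interaction of -1.34 (SE 0.25, adjusted p = 0.000679 in limma). XM_002186759 had one of -1.28 (adjusted p = 0.000796 from limma), with differences of -0.42 in males, which was not called, and 0.86 in females. Some members that rose in females varied together from array to array. With group means removed, the correlation over all arrays was 0.77 for ENSTGUT00000004915 and XM_002189891 and 0.68 for XM_002196885 and XM_002195417. The median over all pairs of members was 0.04. Calls of such members are not independent of each other. Over all 150 members, the difference with testosterone was above 0 in 79 in females and in 41 in males, compared with 51.8% and 46.4% of all transcripts. As in females, the 1st percentile of the array levels was lower in implanted males (2.73 to 2.82) than in their controls (2.91 to 3.01). The part of this shift in these counts and in the interaction was not tested. The members with an interaction in the other direction included XM_002199458 (0.67, adjusted p = 0.00146 from limma) and XM_002193190 (0.54, adjusted p = 0.00159 from limma), which fell in females and had differences of -0.06 and -0.08 in males.

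**Figure D3:**
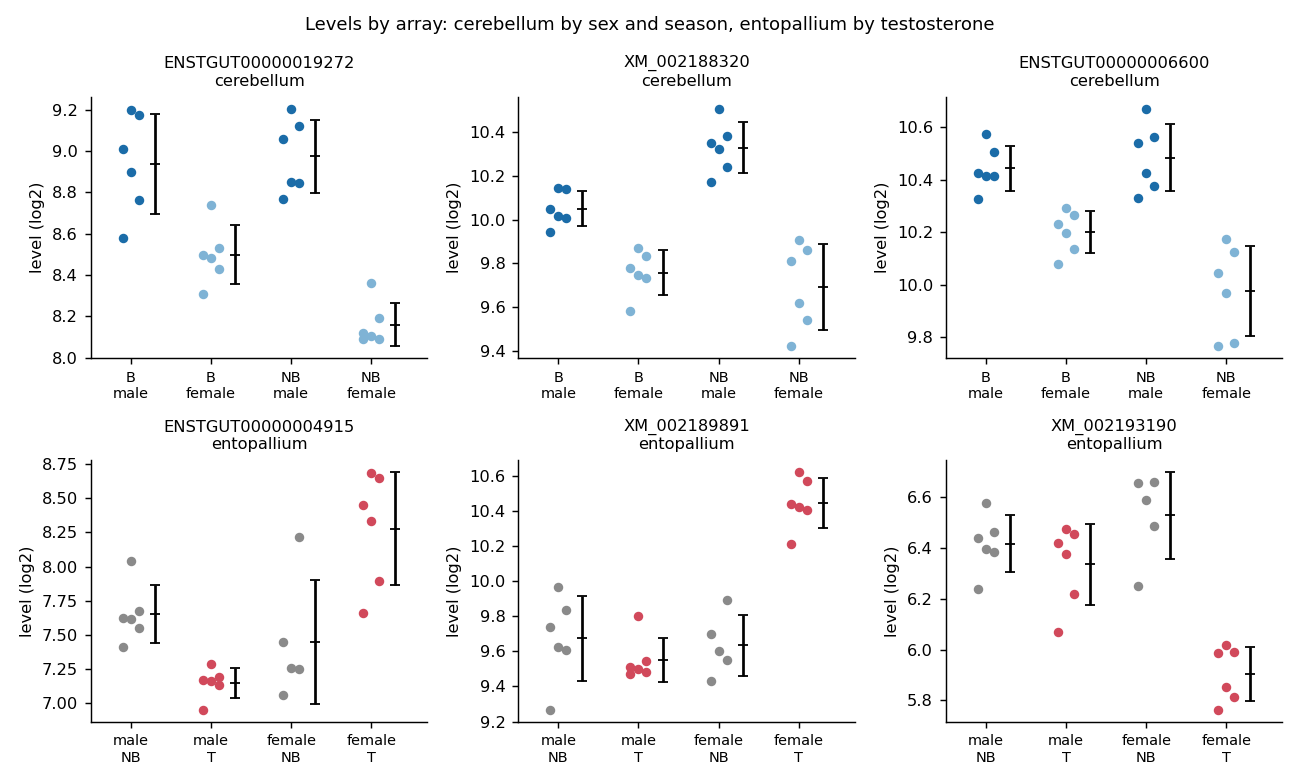
Log2 level in each array (points), with mean and SD beside them, for 3 members with a sex difference in the non-breeding cerebellum (upper row: B, breeding; NB, non-breeding; n = 6 each) and 3 members in the entopallium of non-breeding birds without (NB) and with testosterone (T) in males and females (lower row: n = 6 each, 5 in female controls). Vertical axes do not begin at 0 and differ between panels. In the upper row the NB males lie above the NB females, and in the lower row ENSTGUT00000004915 has opposite differences in the sexes.

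Spontaneously singing females were compared with the same non-breeding control females, so these comparisons share their controls with those of testosterone in females. In HVC, 16 members were called, 14 higher and 2 lower (7.80% of all transcripts, 5.71% as higher and 2.10% as lower). After quantile normalisation 12 were called, 8 higher and 4 lower (5.09% of all transcripts). In the entopallium, 7 members were called, 5 higher and 2 lower (6.71% of all transcripts, 4.37% as higher and 2.33% as lower). The median difference over all transcripts was 0.09 in HVC and 0.11 in the entopallium, and over the members 0.15 and 0.12. In HVC, XM_002199871 had a level of 4.83, 4.94 and 5.65 in the lowest, median and highest singing female and of 3.59, 4.18 and 4.40 in controls, a difference of 0.92 (adjusted p = 0.000537 from limma). XM_002192283 had 4.62, 5.16 and 5.44 in singing females and 4.07, 4.30 and 4.44 in controls, a difference of 0.82 (adjusted p = 0.000156 from limma). The groups did not overlap in either member. Both had low levels, and the low end of the arrays was itself higher in the singing females, at 3.18 to 3.37 against 2.65 to 2.82 in the HVC controls. The part of this shift in their differences was not tested. After removal of the weakest 25% of transcripts, 104 members were tested and 11 were called in HVC, 9 higher and 2 lower (5.25% of all transcripts tested).

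XM_002199458 was lower in both pallium areas of the singing females. In HVC its level was 6.29, 6.55 and 7.10 in singing females and 7.30, 7.45 and 7.59 in controls, a difference of -0.80 (adjusted p = 0.000480 from limma). In the entopallium it was 5.04, 6.40 and 7.11 against the control levels given above, a difference of -1.34 (SE 0.28, adjusted p = 0.00565 in limma). The groups did not overlap in either area, and the singing females were more spread than the controls, with SDs of 0.72 (n = 6) and 0.15 (n = 5) in the entopallium. The same entopallium controls gave its difference of -0.73 with testosterone. In the entopallium, XM_002200140 was higher in singing females, with 5.63, 5.76 and 6.03 against 4.90, 4.92, 4.94, 5.10 and 5.28 in controls (difference 0.78, adjusted p = 0.000586 from limma). XM_002199871 was also higher there, with 4.50, 4.85 and 4.92 against 3.24, 3.88, 4.01, 4.02 and 4.37 in controls (difference 0.86, adjusted p = 0.00394 from limma). The groups did not overlap in these members or in the next. XM_002192734 was lower, with 7.28, 7.77 and 8.27 against 8.34, 8.37, 8.39, 8.50 and 8.75 in controls (difference -0.68, adjusted p = 0.00845 from limma). The low end of the entopallium arrays was also higher in the singing females. Their 1st percentile was 3.22 to 3.43, against 2.80 to 2.90 in the controls. The part of this shift in the differences of XM_002199871 and XM_002200140, which had low levels, was not tested.

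The members had been chosen for equal levels in HVC and entopallium, and the 2 areas were compared in 5 sets of birds outside the rule. Differences are given as HVC minus entopallium, from fits that did not pair the arrays of 1 bird. Among all transcripts the share called was between 12.0% and 16.4%, but most of these had not passed the limit of 0.3 in the groups of the rule. The share among the 13758 transcripts that passed this limit and are not members is therefore given as well. In testosterone-implanted males 3 members were called (13.4% of all and 0.552% of the flat transcripts), in testosterone-implanted females 15 (15.8% and 2.52%) and in spontaneously singing females 3 (12.0% and 0.465%). In forest weavers 16 members were called (12.2% and 2.73%) and in cordon-bleus 13 (16.4% and 4.39%).

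**Figure D4:**
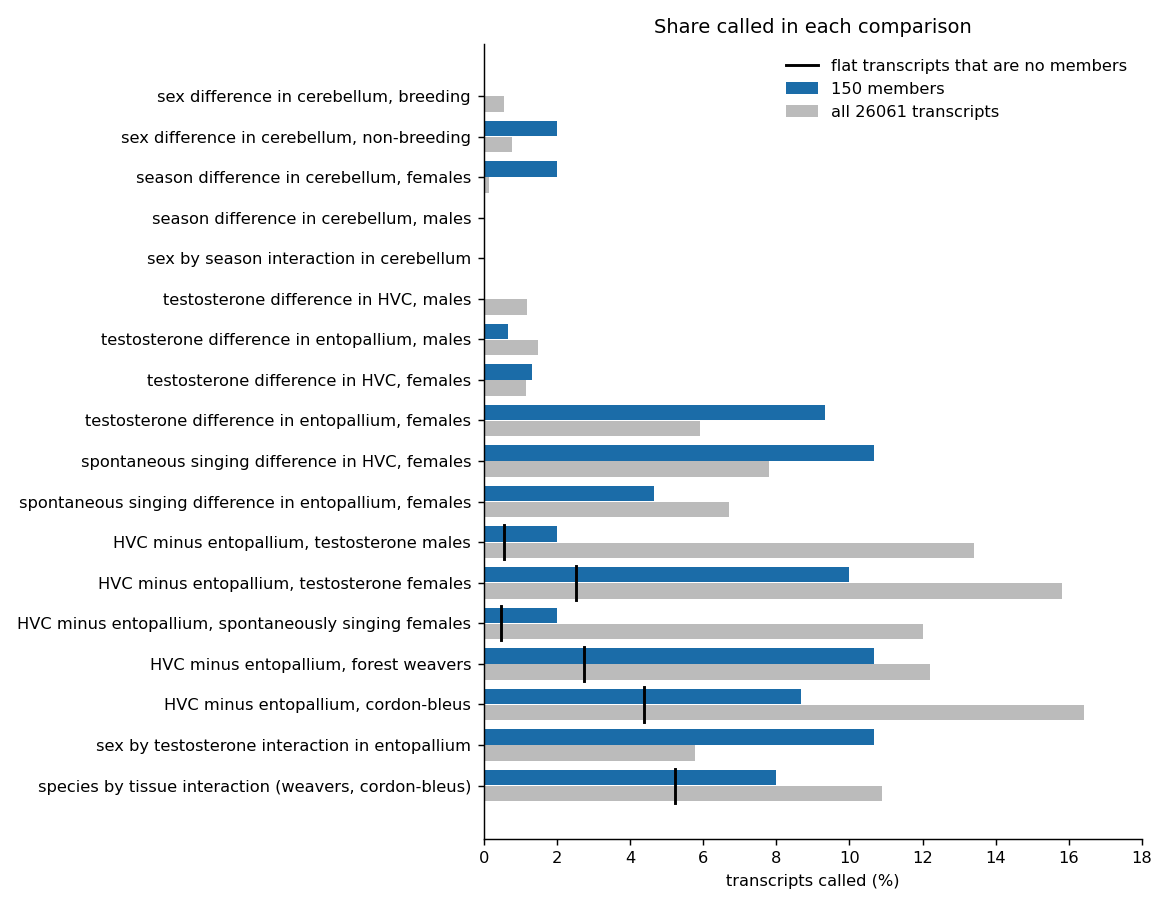
Percent of the 150 members (blue bars) and of all 26061 transcripts (grey bars) called in each of the 18 comparisons, with the percent of flat transcripts that are not members (black line) where HVC and entopallium were compared. Sex and season differences in the cerebellum called at most 2% of the members and 0.779% of all transcripts. The pallium comparisons called up to 10.7% of the members and 16.4% of all transcripts. Of the flat transcripts that are not members, up to 5.23% were called where HVC and entopallium were compared.

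In implanted females, 3 members were higher and 12 were lower in HVC, as were 7.77% and 8.07% of all transcripts. ENSTGUT00000001042 had 6.97, 7.65 and 7.78 in the lowest, median and highest HVC array and 6.30, 6.33 and 6.49 in the entopallium, a difference of 1.13 (adjusted p = 8.68e-06 from limma). XM_002192734 was higher in HVC by 0.67 (adjusted p = 7.36e-06 from limma). XM_002196885 was lower in HVC, with 8.99, 9.21 and 9.35 against 10.02, 10.26 and 10.40, a difference of -1.06 (SE 0.08, adjusted p = 1.38e-07 in limma). XM_002189891 was lower by 0.88, with 9.32, 9.58 and 9.75 in HVC (difference -0.88, adjusted p = 9.62e-07 from limma). The areas did not overlap in these 4 members, and the entopallium levels are those compared with the controls above.

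In implanted males, 2 members were higher and 1 was lower in HVC (6.43% and 6.95% of all transcripts), and all 3 were close to the minimum difference. XM_002192734 was higher in HVC by 0.51 (adjusted p = 4.70e-05 from limma) and XM_002186759 by 0.50 (adjusted p = 0.0306 from limma), and XR_054397 was lower, with a difference of -0.51 (adjusted p = 0.00637 from limma). They were called in 9, 5 and 9 of 12 fits that left out 1 array. After either scaling or quantile normalisation only 1 of the members was called, and it was lower in HVC. Without the weakest 25% of transcripts, 2 were called as higher and 0 as lower. XR_054397 had a low level, with a mean of 3.31 in HVC, where the 1st percentile of the arrays was 2.71 to 2.95. In spontaneously singing females all 3 called members were higher in HVC (5.99% of all transcripts). XM_002192910 had 6.54, 6.86 and 7.10 in HVC and 5.81, 6.08 and 6.38 in the entopallium, a difference of 0.75 (adjusted p = 0.000147 from limma). XM_002198951 had a difference of 0.77 (adjusted p = 0.00695 from limma) and ENSTGUT00000009940 one of 0.58 (adjusted p = 0.00578 from limma), and in both the areas overlapped.

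In forest weavers, 9 members were higher and 7 were lower in HVC (6.50% and 5.71% of all transcripts), with sex as a covariate. Without the weakest 25% of transcripts, 4 were higher and 7 lower. ENSTGUT00000000035 had the largest difference. Its level was 7.19 in the lowest, 7.79 in the median and 8.08 in the highest of 12 HVC arrays and 5.81, 6.02 and 6.72 in 12 entopallium arrays. No entopallium array reached HVC, and the difference was 1.67 (3.18-fold, SE 0.11, adjusted p = 2.60e-12 in limma). XM_002189600 had 6.08, 6.43 and 6.96 in HVC and 4.78, 5.01 and 5.68 in the entopallium, a difference of 1.39 (adjusted p = 2.97e-11 from limma). XM_002193190 was lower in HVC, with 5.51, 6.26 and 6.65 against 6.76, 6.92 and 7.49, a difference of -0.91 (adjusted p = 5.43e-06 from limma).

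In cordon-bleus, 5 members were higher and 8 were lower in HVC (8.27% and 8.09% of all transcripts). ENSTGUT00000005945 had 6.61, 7.09 and 8.39 in HVC and 6.07, 6.21 and 6.48 in the entopallium, a difference of 0.99 (adjusted p = 1.00e-06 from limma). ENSMODT00000027019 had 4.84, 5.19 and 5.50 in HVC and 4.11, 4.20 and 4.44 in the entopallium, a difference of 0.92 (adjusted p = 4.83e-12 from limma). XM_002192910 was lower in HVC, with 6.34, 6.98 and 7.27 against 7.71, 8.32 and 8.73, a difference of -1.38 (SE 0.11, adjusted p = 2.06e-11 in limma). XM_002193190 was lower in this species too, with 5.53, 5.79 and 6.22 in HVC and 6.36, 6.66 and 7.32 in the entopallium, a difference of -1.01 (adjusted p = 4.17e-10 from limma). In these 4 members the areas did not overlap.

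A total of 8 members were called in both species, 50% of those called in forest weavers and 61.5% of those called in cordon-bleus. These shares were 63.1% and 47.1% over all transcripts and 28.2% and 17.5% over the flat transcripts that are not members. The difference had the same direction in 6 of the 8 members, 2 higher and 4 lower in HVC. Among transcripts called in both species, this was so for 97.8% of all and for 89.6% of the flat transcripts that are not members. The other 2 had opposite directions and were the members with the largest differences in forest weavers. ENSTGUT00000000035 was higher in HVC of forest weavers by 1.67 and lower in HVC of cordon-bleus, with 5.91, 6.21 and 6.41 in HVC and 6.77, 7.06 and 7.37 in the entopallium (difference -0.91, adjusted p = 9.33e-12 from limma). XM_002189600 differed by 1.39 in forest weavers and by -0.72 in cordon-bleus (adjusted p = 3.64e-07 from limma). The 2 areas did not overlap for ENSTGUT00000000035 in either species. The interaction of species and tissue was tested after these values had been seen, also without pairing by bird. Taken as forest weavers minus cordon-bleus, it was 2.58 for ENSTGUT00000000035 (SE 0.12, adjusted p = 1.25e-20 in limma) and 2.11 for XM_002189600 (SE 0.14, adjusted p = 3.85e-16 in limma). Both had a correlation of 0.91 over the 24 canary cerebellum arrays after removal of the group means, and of 0.66 over all arrays. The interaction called 12 members, 8 with a more positive difference in forest weavers and 4 in cordon-bleus (10.9% of all transcripts, 6.22% and 4.68% by direction, and 5.23% of the flat transcripts). After quantile normalisation 16 were called, 7 in the first and 9 in the second direction.

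**Figure D5:**
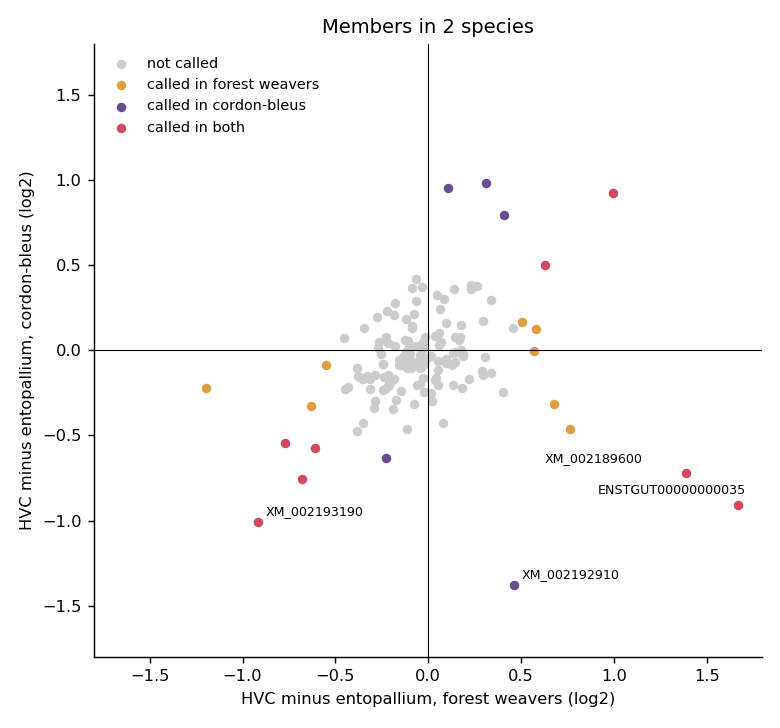
HVC minus entopallium difference (log2) of each of the 150 members in forest weavers (horizontal axis, 24 arrays) and cordon-bleus (vertical axis, 24 arrays), coloured by whether it was called in either species. XM_002193190 is lower in HVC of both species, whereas ENSTGUT00000000035 and XM_002189600 lie at 1.67 and 1.39 in forest weavers and at -0.91 and -0.72 in cordon-bleus.

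Over the 16 comparisons planned, 48 members (32%) were called at least once and 102 were not called. The share was 39.0% over all transcripts and 16.6% over the flat transcripts that are not members. Of these 48 members, 23 were called in a single comparison and 6 in 4 or more. Comparisons in the cerebellum called 6 members in all, or 4%, compared with 1.17% of all transcripts. Of these, 3 were the season calls in females, each kept in only 2 of 12 fits that left out 1 array. The cerebellum arrays compared were also those that chose the members, so no excess is read from this share. The members called most often, in 5 comparisons each, were ENSTGUT00000004915, XM_002186759 and XM_002192734, and several of these comparisons shared birds.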

How the data were processed

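The authors hybridised cDNA made from total RNA of HVC, entopallium and cerebellum to a custom zebra finch exon array. The deposited values are log2 transcript levels that the authors normalised between arrays. The submitters' processing notes name Affymetrix Expression Console; for its settings and version, the sources used here give nothing. The authors tested single probes with ChipInspector, which cannot be repeated on transcript levels. Signal over background is not in the table, so low levels are judged by the 1st percentile of each array.

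Arrays were grouped by the sample descriptions, and 0 pairs were identical. The members were chosen by the stated rule, and members, comparisons and alternatives were chosen with earlier results of these data known. Differences were fitted over all 26061 transcripts by the lmFit and eBayes functions of limma 3.58.1 (R version 4.3.3), with only the groups of a comparison in each fit, the sex as covariate in forest weavers and cordon-bleus, and Benjamini-Hochberg adjustment. The scripts were tested on simulated data. Calls needed an adjusted p under 0.05 together with a log2 difference of 0.5 or more in either direction. Since the identifiers have no gene names, those named are the 2 members with the highest enrichment, the transcripts at the edge of the set, and in each comparison at most 2 that rose and 2 that fell among called members whose groups did not overlap; further names are marked as chosen after their values were seen or come from counts of 5 or fewer. The planned list of cell type markers could not be used.

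The main fits held no term for the bird, so their adjusted p values treat HVC and entopallium arrays as independent. HVC and entopallium arrays of the same group with the same number in their sample titles were taken to come from 1 bird, which the titles do not state. Deviations of such pairs correlated with -0.06 to 0.35 in testosterone-implanted males (6 pairs). The range was 0.13 to 0.26 in implanted females (5 pairs) and -0.19 to 0.32 in spontaneously singing females (6 pairs). No such correlations were computed for forest weavers and cordon-bleus. Alternatives were total intensity scaling, quantile normalisation, removal of the lowest 25% of transcripts, no minimum difference, the trend and robust options, a replicate block, 1 model over the 4 cerebellum groups, omission of each array, and other limits of the rule. The block was the replicate number, or the bird where HVC and entopallium were compared. The number of arrays limits the precision.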

Additional observations from a re-analysis of the deposited data

Results flagged for a closer look

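In 7 of 118 groups of levels that were examined, 1 array lay far from the others of its group by Dixon's criterion, where chance gives about 1 in 20 groups, or 5.9. Breeding male cerebellum gave 2 of them, in the members with the highest enrichment, ENSTGUT00000006855, with 1 bird at 10.37 and the next at 9.97, and XM_002193305, with 1 bird at 10.00 and the next at 9.28. The median over the members was 6.84 in 1 implanted female of HVC and 6.76 in the next. XM_002199871 was high in the HVC of 1 spontaneously singing female, 5.65 against 5.08 in the next, and low in that of 1 non-breeding control female, 3.59 against 4.12. XR_054397 was at 2.91 in the HVC of 1 implanted male and at 3.29 in the next, and ENSTGUT00000009940 at 7.98 in the HVC of 1 spontaneously singing female and at 7.63 in the next.

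The male minus female difference in the change with testosterone in the entopallium was 0.67 for XM_002199458, 0.54 for XM_002193190, -1.34 for ENSTGUT00000004915 and -1.28 for XM_002186759, from the interaction in limma. The difference between forest weavers and cordon-bleus in HVC minus entopallium was 2.58 for ENSTGUT00000000035, 2.11 for XM_002189600, -0.97 for ENSTGUT00000007089 (adjusted p = 7.93e-05 from limma) and -0.85 for NM_019139 (adjusted p = 0.00108 from limma). NM_019139 was at 3.03 in HVC and 2.92 in the entopallium of forest weavers, near the low end of the arrays, and at 4.84 and 3.88 in cordon-bleus.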

How the results depend on the processing

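With a limit of 0.2 or 0.5 on the difference between HVC and entopallium, 83 or 85 of the 150 members were kept. Total intensity scaling kept 147, quantile normalisation 130 and group medians in place of means 126. Leaving out 1 array at a time kept 138 to 150. Without the minimum difference, the members called numbered 2 for sex in the breeding cerebellum, 7 for season in females, 7 and 24 for testosterone in HVC and entopallium of males, 13 and 41 in females, 71 and 30 for spontaneous singing, 29, 75 and 24 for HVC minus entopallium in implanted males, implanted females and spontaneously singing females, 74 in forest weavers, 65 in cordon-bleus, 34 for sex by testosterone and 48 for species by tissue. Of all transcripts, this setting called 1.67% and 0.860% in these 2 cerebellum comparisons, 6.63%, 20.8%, 12.3% and 31.8% for testosterone, 40.4% and 27.3% for spontaneous singing, 36.5%, 54.2%, 27.0%, 42% and 56.6% for HVC minus entopallium, and 21.7% and 32.9% for the interactions, in the same order. Quantile normalisation gave 1 for sex in the breeding cerebellum, and it and scaling gave 1 each for HVC minus entopallium in implanted males. Without the lowest 25% of transcripts, species by tissue called 7, the higher calls fell from 9 to 4 in forest weavers, from 5 to 3 in cordon-bleus and from 5 to 3 for spontaneous singing in the entopallium, and fewer members were tested.

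With the replicate number as a block, season in females called 0 members, and 0 instead of 36 of all transcripts; 1 model over the 4 cerebellum groups called 5 members. For testosterone in HVC of males, the block called 1 instead of 309 of all transcripts. Same-numbered arrays in these 2 comparisons were of different birds. Their correlations were -0.38 to 0.17 for season in females and -0.31 to 0.04 for testosterone in HVC of males. The widest range, -0.47 to 0.34, was that of season in males. These ranges overlap those of arrays with the same bird number, so they do not show whether the replicate numbers mark pairs. Where HVC and entopallium were compared, the block was the bird, and only birds with both areas under the same label were used. Labels had to match exactly, so some forest weaver labels with a suffix were not joined to those without it. That left 32 of 48 arrays for species by tissue, 12 of 24 in forest weavers, 20 of 24 in cordon-bleus and 10 of 12 in implanted females. With the bird as block, the species by tissue calls were 10 higher and 2 lower. With the replicate number as block, those of spontaneous singing in HVC were 14 higher and 1 lower. No other total or directional count of members moved by over 1.5 times with either block. The cause of these changes was not tested.

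With 1 array left out at a time, the members called ranged from 0 to 1 for sex in the breeding and 2 to 5 in the non-breeding cerebellum (5 without non-breeding female replicate 6), 0 to 8 for season in females (8 without non-breeding female replicate 6, 0 without breeding female replicate 1), 0 to 0 in males and 0 to 0 for sex by season. The ranges were 0 to 1 for testosterone in HVC (1 without implanted male replicate 1, 3 or 6) and 0 to 1 in the entopallium of males, 1 to 2 and 13 to 16 in females, 12 to 17 and 7 to 10 for spontaneous singing, 1 to 3, 14 to 17 and 3 to 3 for HVC minus entopallium in implanted males, implanted females and spontaneously singing females, 14 to 17 in forest weavers, 12 to 13 in cordon-bleus, 13 to 20 for sex by testosterone and 11 to 15 for species by tissue. The 45 named results were refitted under 1071 settings in all, and 1004 kept the call, 67 lost it and 0 reversed.

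No signal over background was used, so levels near the 1st percentile of an array have no known detection limit. The identifiers carry no gene names, and 5 or 6 birds per canary group limit the precision.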

Other observations

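ENSTGUT00000019272 was higher in males than in females in most groups, and these values were chosen after they had been seen and were not tested. In the entopallium of breeding canaries its level was 6.60 to 7.19 in 6 males and 6.20 to 6.51 in 6 females, and in HVC 6.93 to 7.50 and 6.11 to 6.48. In the entopallium of forest weavers it was 7.48 to 7.92 in 6 males and 7.10 to 7.32 in 6 females, and in HVC of cordon-bleus 7.01 to 7.39 and 6.32 to 6.70. The sexes overlapped in HVC of forest weavers, with 6.56 to 7.07 in males and 6.18 to 7.25 in females.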
